A study of Homo sapiens with 4 samples.

Results

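The genes described here are those of urokinase and plasminogen activation: PLAU, PLAT, PLAUR, SERPINE2, SERPINB2, THBS1 and F3. The cells were A549 and H441, long-established lines grown from human lung adenocarcinomas. They had been transfected with siTAZ, labelled as directed at TAZ (a transcriptional co-activator whose gene is WWTR1), or with a control siRNA (siNTC), and RNA was taken after 48 h. The groups were A549 with siTAZ, A549 with siNTC, H441 with siTAZ and H441 with siNTC, each hybridised to 1 Affymetrix whole-transcript array, so that no group had a replicate. All 4 groups received an siRNA with the same lipid reagent. The sources used here do not give the siRNA sequences or say if siTAZ was a single duplex. Of the 7 genes, 6 were matched to a probe set by a single gene symbol in the platform annotation, among 18377 genes so matched in all, and each of the 6 had 1 probe set. SERPINB2 was not analysed here. The members were selected on the siTAZ minus siNTC difference of these same arrays, PLAU because it was lower after siTAZ in both lines and SERPINE2 because it was lower in A549, so these differences are given as a description without a test.

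Plasminogen is a circulating zymogen that is cut to plasmin, a broad serine protease that dissolves fibrin and degrades pericellular matrix. Urokinase (PLAU) and tissue-type plasminogen activator (PLAT) make this cut, urokinase mostly on cell surfaces where it is held by its receptor (PLAUR), and serpins block the activators and plasmin by trapping them as covalent complexes. In lung carcinoma the urokinase system is known for its part in invasion through matrix. Tissue factor (F3) starts the coagulation cascade that lays down the fibrin, and thrombospondin 1 (THBS1) is a matricellular glycoprotein that binds several of these proteases and activates latent TGF-beta.

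The promoters of the measured genes are shown because PLAU and SERPINE2 were at least 1.5-fold lower after siTAZ in A549, and TAZ binds DNA only through partners such as the TEAD factors, often beside AP-1. Each sequence is the 250 bases before a transcript start in RefSeq (GRCh38.p14), on the strand of the gene, 5′ to 3′. PLAU and SERPINE2 have 2 starts each there, and no sequence of PLAT is shown. Capitals mark the TEAD letters GGAATG, or CATTCC on the other strand, and the AP-1 letters TGANTCA, which read the same on both strands. These motifs do not overlap each other.
PLAU, first start, chr10:73910360-73910609, plus strand: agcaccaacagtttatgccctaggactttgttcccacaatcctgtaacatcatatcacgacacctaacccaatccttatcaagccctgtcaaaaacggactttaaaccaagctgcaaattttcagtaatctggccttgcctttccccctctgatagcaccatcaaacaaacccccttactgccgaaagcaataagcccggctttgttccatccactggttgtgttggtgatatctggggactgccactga
PLAU, second start, chr10:73910882-73911131, plus strand: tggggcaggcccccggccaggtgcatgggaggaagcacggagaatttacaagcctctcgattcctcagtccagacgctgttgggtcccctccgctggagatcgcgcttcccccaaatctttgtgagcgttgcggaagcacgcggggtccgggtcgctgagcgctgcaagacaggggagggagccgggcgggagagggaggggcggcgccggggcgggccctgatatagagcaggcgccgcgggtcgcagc
SERPINE2, distal start, chr2:224038641-224038890, minus strand: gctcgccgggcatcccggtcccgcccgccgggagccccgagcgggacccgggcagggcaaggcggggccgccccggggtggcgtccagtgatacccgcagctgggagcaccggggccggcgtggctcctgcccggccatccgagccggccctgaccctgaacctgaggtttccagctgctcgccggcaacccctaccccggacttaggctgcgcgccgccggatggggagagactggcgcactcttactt
SERPINE2, proximal start, chr2:224031479-224031728, minus strand: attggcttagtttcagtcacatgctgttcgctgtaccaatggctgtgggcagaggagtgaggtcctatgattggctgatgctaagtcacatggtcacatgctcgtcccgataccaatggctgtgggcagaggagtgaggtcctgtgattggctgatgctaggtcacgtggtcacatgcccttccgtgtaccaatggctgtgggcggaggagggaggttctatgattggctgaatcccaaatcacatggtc
PLAUR, chr19:43670170-43670419, minus strand: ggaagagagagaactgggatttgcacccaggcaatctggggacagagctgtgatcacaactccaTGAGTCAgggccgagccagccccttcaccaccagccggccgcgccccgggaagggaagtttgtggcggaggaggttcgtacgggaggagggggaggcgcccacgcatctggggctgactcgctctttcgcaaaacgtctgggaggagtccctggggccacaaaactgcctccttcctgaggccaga
THBS1, chr15:39580829-39581078, plus strand: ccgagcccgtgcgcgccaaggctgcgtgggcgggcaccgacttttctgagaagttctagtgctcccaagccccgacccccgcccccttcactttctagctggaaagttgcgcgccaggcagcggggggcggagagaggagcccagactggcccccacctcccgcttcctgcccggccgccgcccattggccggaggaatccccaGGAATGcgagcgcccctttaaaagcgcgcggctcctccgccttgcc
F3, chr1:94541760-94542009, minus strand: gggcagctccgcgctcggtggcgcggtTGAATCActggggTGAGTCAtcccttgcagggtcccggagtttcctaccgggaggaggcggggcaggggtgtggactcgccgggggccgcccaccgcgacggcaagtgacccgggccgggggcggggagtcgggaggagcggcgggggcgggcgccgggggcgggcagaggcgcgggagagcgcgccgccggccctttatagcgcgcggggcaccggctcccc

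The windows of PLAU and SERPINE2 held 0 copies of either motif. The THBS1 window held the TEAD letters 46 bases before the start. The PLAUR window held the AP-1 letters 186 bases before the start, and the F3 window held them at 223 and at 210 bases before the start. Among all 35116 promoter windows of 300 bases (250 before to 50 after the start), 14.0% held the TEAD letters and 7.71% the AP-1 letters. The absence of these letters covers only these windows, and nothing about distal elements follows from it.

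The arrays gave log2 signals with medians between 6.05 and 6.25. WWTR1, the silenced gene, was at 7.64 with siTAZ and 10.04 with siNTC in A549, and at 7.47 with siTAZ and 9.61 with siNTC in H441, which left 19.0% and 22.7% of the control signal. All 6 epithelial markers were no lower than the overall median of the table (6.13 on the log2 scale) on every array. The lung adenocarcinoma markers NKX2-1, NAPSA and SFTPB were all above it in H441 and all below it on both A549 arrays. Endothelial markers reached it for 0 of 4 genes in A549 and 1 of 4 in H441, fibroblast markers for 1 of 5 and 3 of 5, and leukocyte markers for 1 of 4 in each line. PTPRC, which defines leukocytes, lay between 4.52 and 4.74, and PECAM1, of endothelium, between 4.86 and 5.22. Of the same lists, CD68 (leukocyte) lay between 8.61 and 10.41 over all arrays, and COL1A1 (fibroblast) between 7.31 and 8.71. In H441 alone KDR (endothelial, 7.84 with siTAZ and 7.64 with siNTC) and the fibroblast markers COL3A1 and LUM also reached the median.

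PLAU, urokinase itself, was lower after siTAZ in both lines. Its log2 signal was 8.34 with siTAZ and 9.11 with siNTC in A549, and 11.44 with siTAZ and 11.996 with siNTC in H441. Both siTAZ values lay below the siNTC value of the same line, while both H441 values lay above both A549 values. The difference was -0.77 in A549, which left 58.5% of the control signal, and -0.56 in H441, which left 67.8%. In A549 PLAU was the gene with the 41st lowest difference of 11405 counted there, a gene being counted where the higher of the line's arrays reached the table median, and in H441 the 145th lowest of 11911. In A549 the central 95% of counted genes had differences from -0.44 to 0.51, and in H441 from -0.46 to 0.41. PLAU lay below that range in each. It was chosen for being lower in both lines, so its ranks and this placing describe the choice. The 1.71-fold lower signal in A549 passed the 1.5-fold line and the 1.47-fold lower signal in H441 fell just short of it. After median centring the H441 difference was -0.64, which passes that line. It was -0.51 after quantile normalization and -0.49 after cyclic loess, which do not. Median centring also moved the median difference over genes in H441 from 0.0048 to -0.084.

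PLAT, the tissue-type activator, had slightly higher signal with siTAZ in both lines. Its log2 signal was 6.88 with siTAZ and 6.53 with siNTC in A549, and 10.16 with siTAZ and 9.94 with siNTC in H441. The differences of 0.35 and 0.22 lay inside the central 95% of counted genes in each line. The 2 plasminogen activators therefore had differences of opposite sign in each line. They were -0.77 for PLAU and 0.35 for PLAT in A549, and -0.56 and 0.22 in H441. The sign of PLAU was part of how it was chosen.

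PLAUR, the membrane-anchored receptor that concentrates urokinase at the cell surface, had differences near 0. Its log2 signal was 8.32 with siTAZ and 8.12 with siNTC in A549, and 9.99 with siTAZ and 9.89 with siNTC in H441. The differences were 0.20 and 0.10, both inside the central 95% of counted genes. In H441 the difference was 0.02 after median centring, 0.14 after quantile normalization and 0.15 after cyclic loess. The PLAUR differences were opposite in sign to those of its ligand PLAU, which had been chosen for its lower signal.

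SERPINE2, protease nexin 1, is a serpin that inhibits urokinase, thrombin and plasmin. It was 2.34-fold lower after siTAZ in A549. Its log2 signal there was 7.42 with siTAZ and 8.65 with siNTC, a difference of -1.23, the 4th lowest of the 11405 counted genes. The gene was chosen for being lower in A549, so this rank describes the choice. In H441 SERPINE2 was at 4.99 with siTAZ and 4.84 with siNTC. Both H441 values lay below the table median, at percentiles 22.2 and 19.3 of all probe sets, so SERPINE2 was not counted in that line, and a change at so dim a signal may be compressed. In A549 urokinase and this inhibitor of it were therefore both lower after siTAZ, whereas in H441 SERPINE2 was dim under both siRNAs.

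THBS1 had nearly the same signal with either siRNA. It was at 10.17 with siTAZ and 10.05 with siNTC in A549, and at 10.63 with siTAZ and 10.64 with siNTC in H441, differences of 0.12 and -0.01. F3, the cell surface receptor for factor VII, was at 5.56 with siTAZ and 5.85 with siNTC in A549, both below the table median, and at 8.20 with siTAZ and 8.20 with siNTC in H441. Its differences were -0.29 in A549 and -0.0033 in H441.

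**Figure D1:**
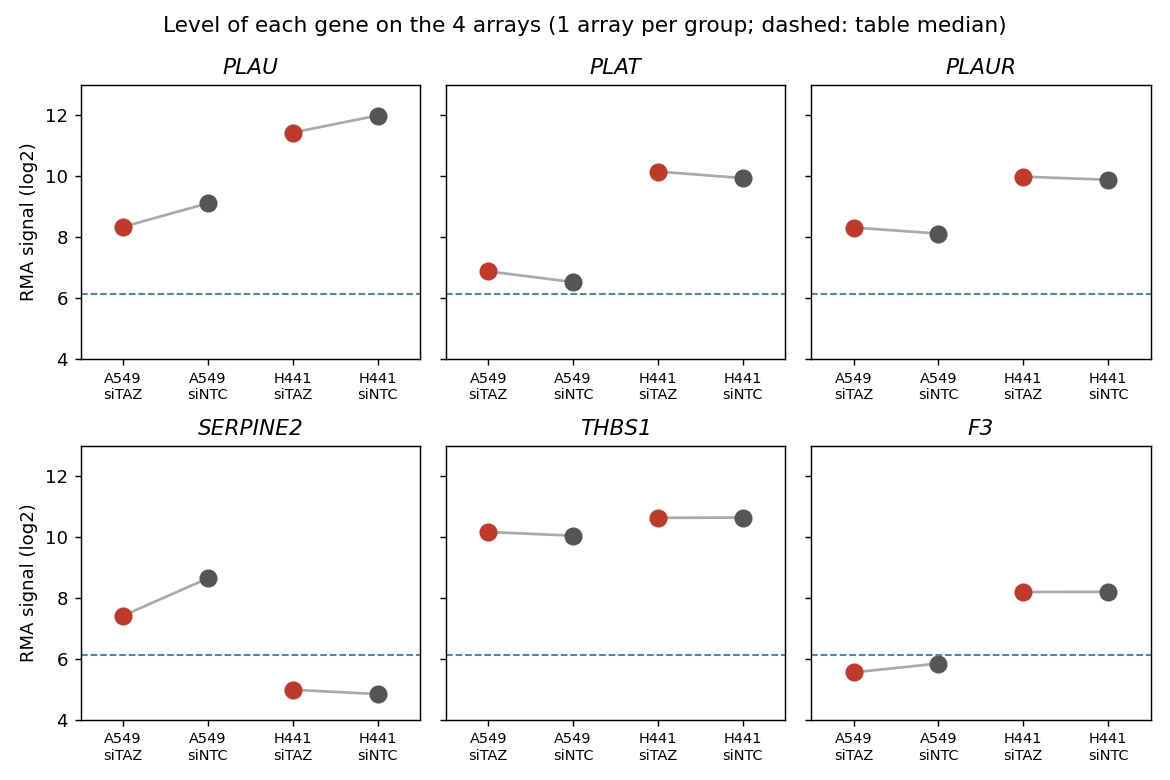
Log2 RMA signal (vertical axis) of the 6 measured genes on the 4 arrays (horizontal axis), 1 array per point, siTAZ in red and siNTC in grey, with the median of the whole table dashed. PLAU was lower with siTAZ in both lines (8.34 against 9.11 in A549, and 11.44 against 11.996 in H441), and SERPINE2 stood above the table median in A549 only.

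Counted over the members, 2 of the 5 counted in A549 were at least 1.5-fold lower after siTAZ (PLAU and SERPINE2) and 0 at least 1.5-fold higher, where 1.07% of all counted genes were that much lower and 1.76% that much higher. In H441, 0 of the 5 counted passed 1.5-fold in either direction as deposited, where 0.974% of counted genes were lower and 0.479% higher. PLAU passed 1.5-fold in H441 after median centring (-0.64), but not after quantile normalization (-0.51) or cyclic loess (-0.49). No test over both lines is given for the members. Since PLAU and SERPINE2 were chosen for these values, the counts describe the choice. Differences of opposite sign in the lines were found for SERPINE2 and THBS1, but for THBS1 the H441 difference was 0.05 after quantile normalization and 0.06 after cyclic loess, the same sign as in A549. No test of a difference in response between the lines is possible with 1 array per group.

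**Figure D2:**
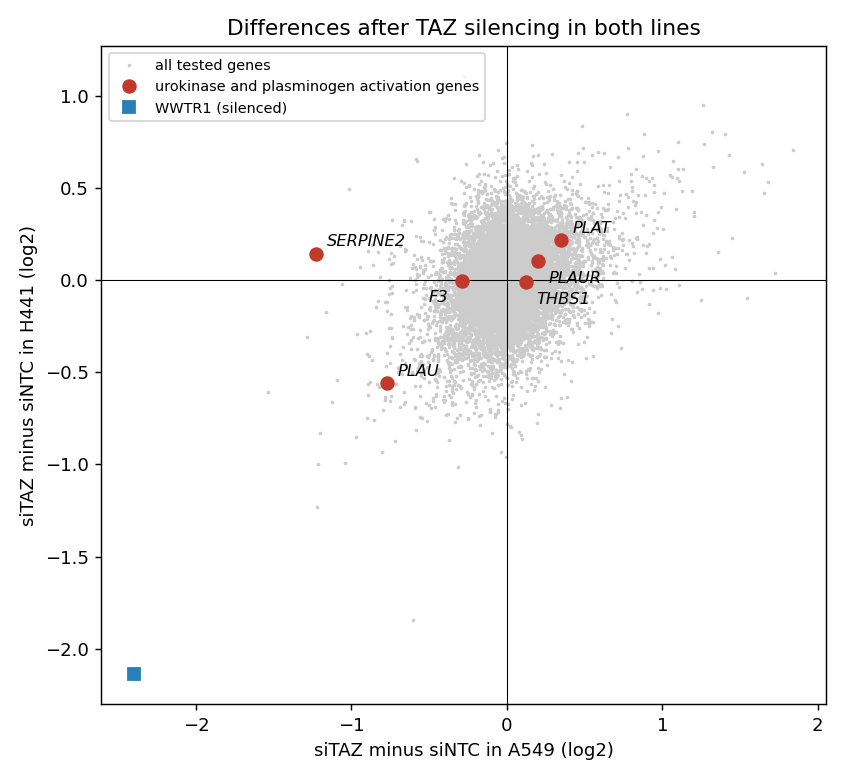
Difference between siTAZ and siNTC on the log2 scale in A549 (horizontal axis) and H441 (vertical axis), with all tested genes in grey, the 6 measured members in red and WWTR1 as a blue square. PLAU lies at the lower left (-0.77 and -0.56), SERPINE2 far to the left near 0 in H441, and the other 4 members close to the origin.

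The difference between the lines was not used to choose the genes and was tested. Per gene, the A549 minus H441 difference was estimated over both siRNAs, with 2 arrays per line, and called at a limma adjusted p under 0.05. PLAU, PLAT, PLAUR and THBS1, which reached the table median in both lines, were lower in A549 than in H441. SERPINE2 and F3 passed the filter only through the line where each was high, so their line differences are given with no test. The background is high, since 71.9% of the tested genes were called between the lines, 52.8% lower and 19.0% higher in A549. The fit has 1 residual degree of freedom and borrows most of its spread from all genes, so a call concerns these 4 arrays. PLAU and PLAT were called and at least 4-fold lower in A549, as were 3.67% of tested genes, while 2.61% were called and at least 4-fold higher. PLAUR and THBS1 were called but less than 4-fold apart. F3, lower in A549, and SERPINE2, higher in A549, were also at least 4-fold apart. As the filter kept each through the line where it was high, they are not set against these shares.

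PLAT averaged 6.70 on the A549 arrays and 10.05 on the H441 arrays, a 10.2-fold lower signal in A549 (-3.34 ± 0.12 limma SE, limma adjusted p = 8.3e-18). Of all tested genes, 1.81% differed at least this much between the lines in either direction. PLAU averaged 8.73 in A549 and 11.72 in H441, 7.94-fold lower in A549 (-2.99 ± 0.12 SE, limma adjusted p = 9.7e-17). The PLAU signal of H441 with siTAZ remained above that of A549 with siNTC. PLAUR averaged 8.22 in A549 and 9.94 in H441 (-1.72 ± 0.12 SE, limma adjusted p = 3.6e-12). The activators and the receptor were thus lower together in A549, at percentiles of all probe sets between 57.9 and 89.4 there and between 92.1 and 99.0 in H441.

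SERPINE2 ran the other way. It averaged 8.03 in A549 and 4.92 in H441, a difference of 3.12 on the log2 scale. The difference was 2.43 on the siTAZ arrays and 3.80 on the siNTC arrays, since the A549 signal was lower with siTAZ. Its H441 signal was dim, so the size of the gap may be understated. F3 averaged 5.70 in A549 and 8.20 in H441, a difference of -2.50, and its A549 signal was the dim one. THBS1 averaged 10.11 in A549 and 10.64 in H441 (-0.53 ± 0.12 SE, limma adjusted p = 0.00032). That difference lies 0.22 below the median over all tested genes, -0.31, and it was -0.12 after quantile normalization (limma adjusted p = 0.34) and -0.14 after cyclic loess (0.28) and lost its call under both. After quantile normalization the calls between the lines were split 49.6% higher and 50.4% lower in A549, against 26.5% and 73.5% in the deposited values. PLAU, PLAT and PLAUR kept both direction and call under each of these scalings, and SERPINE2 and F3 kept their direction.

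**Figure D3:**
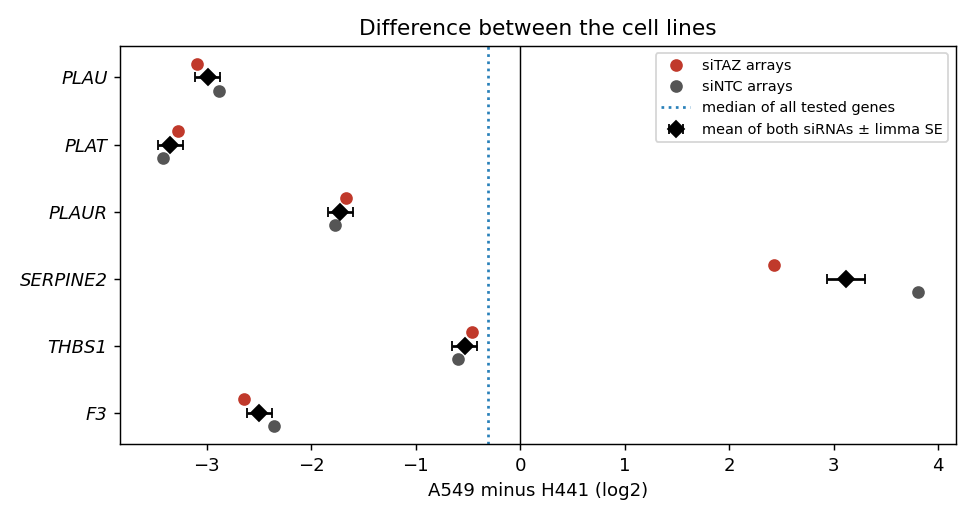
Difference between A549 and H441 on the log2 scale (horizontal axis) for each measured gene, as the mean over both siRNAs with its limma SE (black diamonds), on the siTAZ arrays (red) and on the siNTC arrays (grey), with the median of all tested genes dotted. SERPINE2 lies to the right of 0 at 3.12, PLAT farthest to the left at -3.34, and THBS1 near the dotted line.

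By the profile over the 4 arrays, the genes most like PLAU were DCAF16, ANXA3, ARB2BP, KRT4 and HOOK1, with root mean square distances of 0.16 to 0.21 on the log2 scale after each profile was centred on its own mean. DCAF16 had siTAZ minus siNTC differences of -0.77 (A549) and -0.40 (H441), and ANXA3 had -0.44 and -0.43. All 5 were at least 2.69 lower in A549 than in H441, and ARB2BP and HOOK1 were below the table median on both A549 arrays. The genes most like SERPINE2 were HAS2, FGFR1, SLC7A2, DCDC2 and FGF2, at distances of 0.089 to 0.32. HAS2, a hyaluronan synthase gene, had -1.06 in A549 and -0.02 in H441, FGFR1, a fibroblast growth factor receptor gene, -0.58 and 0.11, and FGF2, which encodes one of its ligands, -0.46 and 0.25. All 5 genes most like SERPINE2 were, like it, below the table median on both H441 arrays, so a change there may be compressed. With only 4 arrays the likeness rests mostly on the gap between the lines, and it is a description.

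Of 57 further genes of plasminogen activation and coagulation, 52 had a probe set with a single symbol and 41 were tested for siTAZ against siNTC over both lines. At a limma adjusted p under 0.05, 1 was called lower and 0 higher, with 7 at an unadjusted p under 0.05, against 1.29% and 1.19% of all tested genes called and 1688 of 12740 at an unadjusted p under 0.05. Over those counted in each line, 32 in A549 and 35 in H441, the median differences were 0.07 and 0.02. Over all counted genes they were 0.0051 and 0.0048. The 5 of the 57 without such a probe set were not analysed here.

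The gene called was TFPI2, which encodes a Kunitz-type inhibitor of plasmin and of other serine proteases. Its log2 signal was 9.32 with siTAZ and 10.20 with siNTC in A549, and 10.31 with siTAZ and 10.59 with siNTC in H441. The siTAZ value was the lower one in each line, by 0.88 and by 0.28, and the mean difference was -0.58 ± 0.13 (SE, limma adjusted p = 0.016). The call was lost after quantile normalization (adjusted p = 0.11), after cyclic loess (0.22), without the filter on dim genes (0.13) and without cell line in the fit (1). TFPI, the tissue factor pathway inhibitor, had differences of -0.33 and -0.52 and did not pass (limma adjusted p = 0.058, or 0.023 after median centring). Its limma adjusted p was 0.095 after quantile normalization, 0.18 after cyclic loess and 0.15 without the filter on dim genes. In the same list THBD, thrombomodulin, had -0.21 and 0.38, and PROS1, protein S, had 0.33 and 0.27, where its other probe set gave 0.53 in A549 and -0.24 in H441.

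Among urokinase receptor partners and clearance receptors, 0 of 12 tested passed. VLDLR, an endocytic receptor that clears urokinase in complex with serpins, had -0.84 in A549 and -0.14 in H441 (limma adjusted p = 0.056, or 0.0086 after median centring). The limma adjusted p of VLDLR was 0.17 after quantile normalization, 0.27 after cyclic loess and 0.23 without the filter on dim genes. ITGAV, the integrin alpha v subunit, had 0.62 and 0.24 (0.065), ITGB1, the integrin beta 1 subunit, 0.02 and -0.46 (0.48), and MRC2, an endocytic collagen receptor that associates with the urokinase receptor, 0.34 and 0.16 (0.36). 3 of the 12 had an unadjusted p under 0.05.

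Plasminogen and its cell surface binding proteins showed no called change, with 0 of 4 tested passing and 0 at an unadjusted p under 0.05. PLG, plasminogen, lay between 4.93 and 5.57 on all arrays and was too dim to be tested. S100A10, which with annexin A2 binds plasminogen, had -0.14 in A549 and -0.16 in H441, ANXA2 had 0.08 and -0.22, PLGRKT, a plasminogen receptor, -0.15 and -0.14, and ENO1, enolase 1, 0.02 and -0.03. In H441 all 4 had differences below 0, where 5809 of all 11911 counted genes did, but ENO1 was at 0.06 after quantile normalization and 0.08 after cyclic loess. In A549 2 of the 4 were below 0.

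Among other inhibitors of plasminogen activators and plasmin, 0 of 2 tested passed: SERPINI1, neuroserpin, had 0.33 and -0.07, and SERPINF2, alpha 2-antiplasmin, had 0.41 and 0.12 (limma adjusted p = 0.73 and 0.33). Of these, 1 had an unadjusted p under 0.05. Of pericellular serine proteases and growth factor substrates 0 of 8 passed, with 0 at an unadjusted p under 0.05. SPINT2, a Kunitz-type protease inhibitor, had 0.40 and -0.06, HABP2, a plasma serine protease, 0.25 and -0.16, F12, factor XII, -0.20 and 0.20, and HGFAC, the hepatocyte growth factor activator, -0.10 and 0.15. HABP2 in H441 and HGFAC in A549 were below the table median on both arrays, so they were not counted there. Of the thrombospondin family and its receptors 0 of 4 passed, with 0 at an unadjusted p under 0.05. THBS3 had -0.15 and -0.32, SDC1, syndecan 1, 0.19 and 0.25, COMP -0.04 and -0.16, and CD47, the thrombospondin receptor, 0.07 and 0.02. COMP was below the table median on both A549 arrays.

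**Figure D4:**
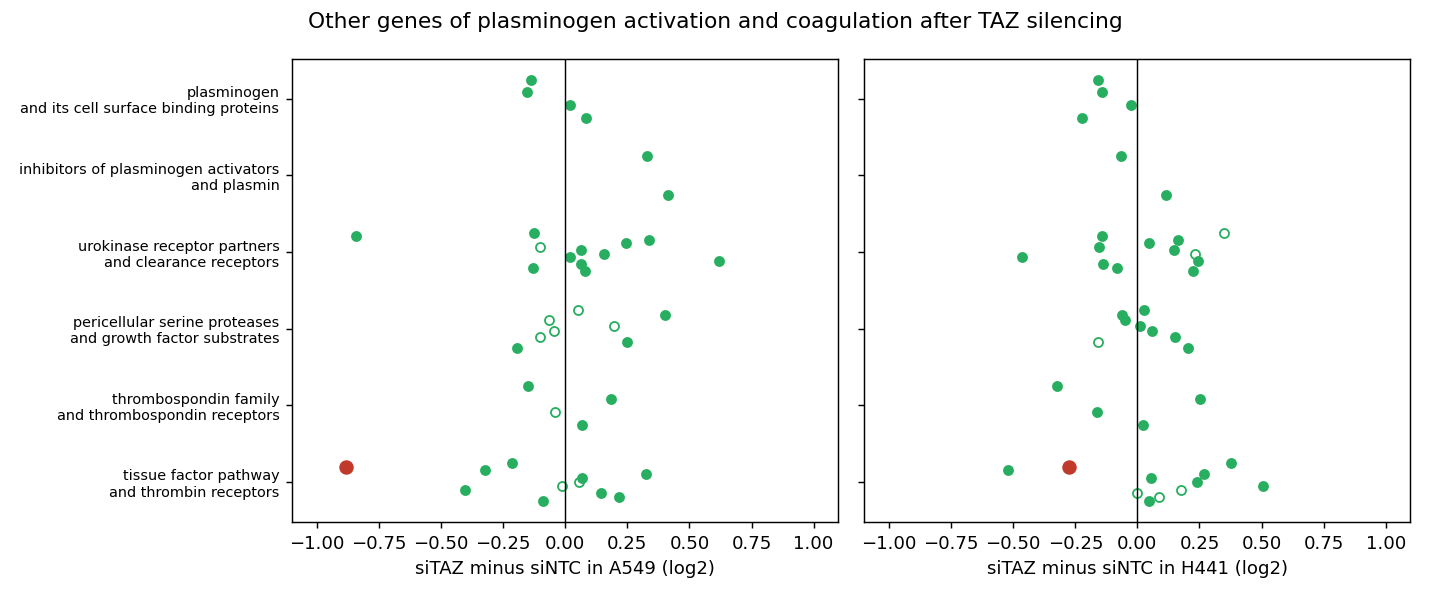
Difference between siTAZ and siNTC on the log2 scale (horizontal axes) in A549 (left panel) and H441 (right panel) for the 41 tested pathway genes, 1 point per gene, in the 6 lists (vertical axis). Open points are genes below the table median on both arrays of the line, and the red point is TFPI2 (-0.88 and -0.28), the gene that passed the limma test over both lines.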

How the data were processed

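RNA of A549 and H441 was profiled on 4 arrays, 1 per line and siRNA. The authors deposited log2 signals per probe set, made with RMA, per the submitters' processing notes. The log2 scale was read from the values, and whether the arrays were normalized together is not given in the sources used here. RMA compresses differences of dim probe sets. No detection calls or scanner values were used, so the number of arrays limits the precision.

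Of 28869 probe sets, 19310 had 1 gene symbol, 1752 several and 7807 none. The probe set with the highest mean was kept per gene. Differences within a line have no test. limma 3.58.1 in R 4.3.3 (lmFit, eBayes, two-sided) was fitted to all 4 arrays with cell line and siRNA as terms, over the 12740 genes whose highest value reached the table median, with Benjamini-Hochberg adjustment over all of them. It has 1 residual degree of freedom and a prior worth 22.3. The residual is the gap between the lines in their siTAZ minus siNTC difference, and the prior pools the spread of all genes. P-values therefore measure no spread among replicates, which no group had, and concern these 4 arrays only. Data were also simulated for these genes, with the same noise spread for every gene and the same shift in both lines. There the siTAZ comparison found 95.5% of 200 genes shifted by 0.6 (log2) beside 9 false calls, and 0 genes where nothing was shifted. The real arrays need not meet these settings, so the error rates of the real calls do not follow from them.

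The members and lists were chosen with earlier results of these arrays known. Named were all members, WWTR1 and PLG, per list up to 4 genes whose mean absolute difference was largest, any list gene that passed, and the 5 genes nearest in profile to PLAU and to SERPINE2. NKX2-1, NAPSA, SFTPB, PTPRC, PECAM1, CD68, COL1A1, KDR, COL3A1 and LUM are cell type markers. Alternatives were 3 scalings, 2 filters, the mean of probe sets and fits without a term.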

Additional observations from a re-analysis of the deposited data

Results flagged for a closer look

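Some named genes, SERPINE2 and others whose signal reached the table median in both lines, had siTAZ minus siNTC differences of opposite sign in the 2 lines, which is what drew them here. With 1 array per group the difference between the lines was not tested for any of them. SERPINE2 had -1.23 in A549 and 0.14 in H441, where it was dim. THBS1 had 0.12 and -0.01, ANXA2 0.082 and -0.22, ENO1 0.020 and -0.03, F12 -0.20 and 0.20, ITGB1 0.018 and -0.46, SERPINI1 0.33 and -0.07, SPINT2 0.40 and -0.06, and THBD -0.21 and 0.38. The sign in H441 turned to that in A549 after quantile normalization and after cyclic loess for THBS1 (0.05 and 0.06) and ENO1 (0.06 and 0.08), and SPINT2 in H441 was then at 0 and 0.01. The A549 sign of ITGB1 turned to that in H441 after quantile normalization (-0.04). The other 5 kept opposite signs under each of the 3 scalings. Apart from SERPINE2 in A549, each value as deposited lay below 1.5-fold.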

How the results depend on the processing

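The fit over both lines compares siTAZ with siNTC within each line through its cell line term, and no pairing by replicate number was possible because the labels give none. Filters left the differences within a line as they were, and under the 3 scalings PLAU kept -0.78 to -0.77 in A549 and -0.64 to -0.49 in H441, and SERPINE2 -1.28 to -1.22 in A549. Genes called lower and higher after siTAZ over both lines were 164 and 151 as deposited, 79 and 80 after quantile normalization, 11 and 9 after cyclic loess, 45 and 47 without the filter, and 0 and 0 in the limma fit without cell line (11 at an unadjusted p under 0.05). After median centring 277 were lower and 123 higher. Of the pathway genes, 3 were called lower after median centring (TFPI, TFPI2 and VLDLR), and 0 after quantile normalization, after cyclic loess, without the filter and without cell line. In H441 after median centring, 220 genes were at least 1.5-fold lower and 26 higher. Between the lines, 4144 genes were lower and 4074 higher in A549 after quantile normalization. After cyclic loess 3992 were lower and 4081 higher, against 6733 and 2425 as deposited. Of the 41 tested pathway genes, 19 were called lower and 15 higher in A549 as deposited, beside 52.8% and 19.0% of all tested genes. Under each of these scalings 12 pathway genes were called lower and 17 higher. Some of them, such as ST14, passed the filter only through the line where they were high, so these counts are a description. THBS1 lost its call between the lines after quantile normalization and after cyclic loess, at -0.12 and -0.14. The A549 minus H441 difference on the siTAZ and the siNTC arrays alone was 2.43 and 3.80 for SERPINE2 and -2.64 and -2.35 for F3. The cause of these changes was not tested. Signal limits SERPINE2 in H441 and F3 in A549, both below the table median.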

Other observations

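Between the lines, some pathway genes had wide gaps. ST14, SPINT1, ITGB6 and F2R lie outside the naming rule, were chosen after their values were seen, and were below the table median on both arrays of the line where they were dim. No test is given for these gaps. ST14, the matriptase gene, a membrane serine protease that activates urokinase, was at 5.38 and 5.33 in A549 with siTAZ and siNTC and at 10.996 and 10.97 in H441. SPINT1, which encodes an inhibitor of matriptase, was at 6.05 and 6.11 in A549 with siTAZ and siNTC and at 10.09 and 10.14 in H441. ITGB6, the integrin beta 6 subunit, was at 5.08 and 5.18 in A549 with siTAZ and siNTC and at 8.38 and 8.54 in H441. F2R, the thrombin receptor PAR1, was higher in A549, at 8.11 and 7.97 with siTAZ and siNTC, against 4.81 and 4.81 in H441. TFPI, the inhibitor of the tissue factor pathway, was at 8.29 and 8.61 in A549 with siTAZ and siNTC and at 6.37 and 6.89 in H441, while F3 was lower in A549. MRC2 was at 8.60 and 8.26 in A549 with siTAZ and siNTC and at 6.22 and 6.05 in H441.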
